A study of Mus musculus with 3 samples.

Results

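Retinal horizontal cells of mice at postnatal day 11 (P11) were compared with those at postnatal day 8 (P8), gene by gene, with attention to genes of cellular stress programmes. A barcode was taken as a horizontal cell when it held at least 1000 detected genes, at most 10% of its counts from mitochondrial genes and at least 1 count of 2 or more of Lhx1, Onecut1 and Onecut2, transcription factor genes of this lineage. These cells numbered 7910 of the 20048 barcodes in the series, 3153 at P8 and 4757 at P11. A further 7145 cells from postnatal day 6 (P6) served to show what had happened in the step before.

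The P6, P8 and P11 samples were retinas of mice that all carried Cx57icre and Ai14, with no group lacking either allele. In Cx57icre the connexin 57 gene drives Cre recombinase, and Ai14 turns on red fluorescence once Cre has been active, so the cells studied were those with Cre activity. Retinas were digested with papain, red cells were sorted by flow cytometry, and each age gave 1 droplet library with the 10x Genomics 3′ chemistry, in which every captured transcript is counted once through a unique molecular identifier (UMI). The number of animals behind each library is not given in the sources used here. With 1 library per age, age and library cannot be told apart, no test between ages was possible, and all intervals printed are 95% intervals that cover counting error only.

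Horizontal cells are inhibitory interneurons whose processes end beside the synaptic terminals of rods and cones and feed signals back to them. During the days sampled here these contacts are being assembled, and the cells pass from neurite growth to mature signalling. Stress programmes are sets of genes that a cell turns on through a sensor and a transcription factor: heat shock factor for unfolded protein in the cytosol, ATF6 and XBP1 for the endoplasmic reticulum, ATF4 for amino acid shortage, NRF2 for oxidants, MTF1 for metal, p53 for damaged DNA, HIF for low oxygen and the glucocorticoid receptor for stress hormone. Several of the same genes also serve normal development, and enzymatic dissociation of tissue is itself known to induce immediate early genes such as Fos.

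The cells carried horizontal cell markers that the selection had not used. Calb1, which encodes the calcium buffer calbindin, stood at 1714 counts per 1000000 UMIs (CPM) at P8 and 2952 at P11. The 6 horizontal cell markers left out of the selection together came to 11661 CPM at P8 and 17615 at P11, against 3303 and 4111 CPM in the 129 and 186 barcodes that passed the same limits but were not taken as horizontal cells. The 9 rod markers summed to 8.32 and 7.096 CPM, and the 7 cone markers to 0.992 and 1.39 CPM. The Müller glia markers summed to 201 and 298 CPM, of which Glul gave 137 and 196, and the bipolar markers to 51.6 and 54.1 CPM, of which Prkca gave 45.5 and 48.8. At P8 2 of the 9 Müller markers, Kcnj10 among them, had 0 UMIs, and 4 were under 1 CPM at each of these ages. Amacrine markers summed to 11006 and 6427 CPM, of which Npy gave 9286 and 4465 and Tfap2b 1466 and 1698. In those other barcodes they came to 3677 and 1654 CPM. Of these 8 markers, 2 were under 1 CPM at P8 and 3 at P11. Markers of ganglion cells summed to 2282 and 1384 CPM, of which Nefl gave 1358 and 815 and Sncg 900 and 552. The other barcodes held 282 and 2294 CPM of them, and of these 7 markers 4 were under 1 CPM at P8 and 2 at P11.

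The libraries differed in ways other than age. Summed counts over the horizontal cells were 62520239 UMIs at P8 and 103160766 at P11, with medians of 20671 and 22106 UMIs per cell against 12161 at P6. The median mitochondrial share was 3.32% at P8 and 4.56% at P11, and the median share of Malat1, a nuclear RNA, was 1.10% and 1.95%. Gm42418, a locus that overlaps ribosomal RNA, stood at 418 CPM in P6 cells, 6169.6 in P8 cells and 1819 in P11 cells. Xist, the RNA of the inactive X chromosome, had 0 UMIs in the P8 horizontal cells but 310 CPM at P11 and 569 at P6, while the Y-linked Ddx3y was counted in all 3 libraries (90.3 CPM at P8, 69.7 at P11, 31.8 at P6). At P11 37.3% of the cells held an Xist UMI. The mix of sexes and age cannot be told apart, and for the main genes values in the cells with 0 Xist UMIs are given. P8 and P11 shared 5 barcodes.

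Sequences upstream of 3 stress genes are shown because these genes carry the results that follow and because each belongs to a programme with a well known binding motif. Each is the 250 bases before an annotated start in RefSeq's table for build GRCm38.p6, the same assembly as mm10, and capitals mark a match to the motif of that gene's programme on either strand. Of 6 stress genes looked up 5 had an entry. Sgk1, which encodes a serum- and glucocorticoid-induced kinase, has 6 annotated starts on the plus strand of chromosome 10, and the window shown (chr10:21993640-21993889) is the 1 of the 6 that held a glucocorticoid response element, searched as AGAACA, any 3 bases and TGTTC, 189 bases before the start. The Hspb8 window (chr5:116422865-116423114, minus strand) was searched for a heat shock element as GAANNTTC and held none. The Mt1 window (chr8:94178839-94179088, plus strand) held 1 metal response element, searched as TGCNCNC. The Klf9 window, searched for the glucocorticoid response element, and the Shmt2 window, searched for an amino acid response element as TGATGNAA, held none.
Sgk1: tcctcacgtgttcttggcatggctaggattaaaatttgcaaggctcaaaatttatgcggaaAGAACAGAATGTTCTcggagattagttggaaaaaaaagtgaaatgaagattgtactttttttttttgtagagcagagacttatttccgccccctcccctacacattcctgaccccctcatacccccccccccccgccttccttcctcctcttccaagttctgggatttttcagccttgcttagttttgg
Hspb8: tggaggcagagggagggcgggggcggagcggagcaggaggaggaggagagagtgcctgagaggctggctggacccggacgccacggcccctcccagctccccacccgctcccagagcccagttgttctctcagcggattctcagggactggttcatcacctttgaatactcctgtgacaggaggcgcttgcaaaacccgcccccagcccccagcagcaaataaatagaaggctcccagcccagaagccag
Mt1: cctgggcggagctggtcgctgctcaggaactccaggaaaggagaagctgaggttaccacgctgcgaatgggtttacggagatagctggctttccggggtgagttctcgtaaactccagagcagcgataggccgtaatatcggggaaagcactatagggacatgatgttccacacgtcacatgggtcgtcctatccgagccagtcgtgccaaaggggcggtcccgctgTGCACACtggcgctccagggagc

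The glucocorticoid motif was rare, with a match in 10 of 32851 promoter windows of this length (0.0304%), whereas 6.69% held the heat shock motif and 44.4% the metal motif. At Sgk1 the letters matched on both strands, offset by 1 base, and the overlapping matches were counted as 1. A match describes letters, not binding, and the 3′ counts do not tell which of the 6 starts of Sgk1 was used.

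Of 336 stress genes in 13 lists, 186 were measured, meaning that they reached 20 CPM at P8 or P11, and the other 150 were low at both ages. Among the 186, 14 were at least 1.5-fold higher at P11 than at P8 (7.53%), 6 were at least 1.5-fold lower (3.23%) and 166 lay between. Over all 6770 measured genes the same limits were passed by 10.4% upward and 4.55% downward, so the shares of stress genes were below those of all genes. Their median log2 ratio of P11 over P8 was -0.03, beside 0.07 for all genes. The stress genes had a shorter median genomic span, 17.0 kb against 28.3 kb, and shorter genes had lower ratios, as given further on. A larger part of them reached 100 CPM, 99 of 186 against 2167 of 6770, and the shares were not adjusted for span or level. TMM scaling, which sets libraries to a common level through genes near the middle of the ratios, gave 11 higher and 10 lower stress genes, where 7.60% and 7.18% of all genes passed.

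**Figure D1:**
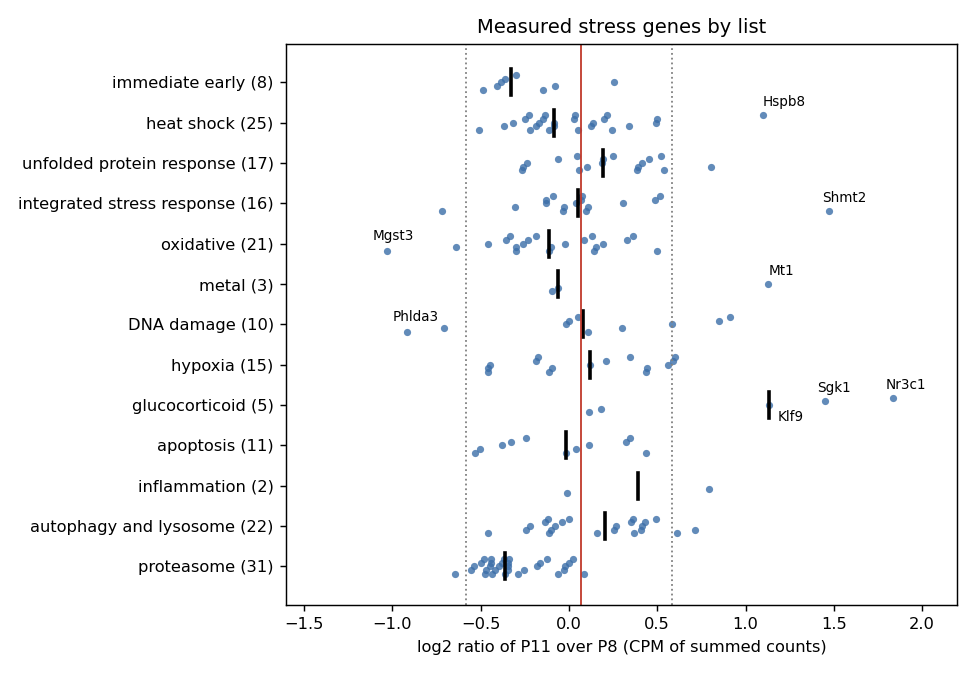
Log2 ratio of P11 over P8 (CPM of summed counts, horizontal axis) for each measured stress gene, 1 point a gene, by list with the number measured; black bars are list medians, the red line is the median of all 6770 genes and dotted lines mark 1.5-fold. Most points lie between the dotted lines, and the glucocorticoid list is the row whose median (1.13) lies past them.

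A stress gene was counted as differing in this step only when P11 and P8 lay at least 2-fold apart while P8 and P6 lay within 1.5-fold, under both CPM and TMM scaling. Over all measured genes 46 met this rule (0.679%), 27 of them higher at P11 (0.399%) and 19 lower (0.281%). With CPM scaling by itself 74 genes met it (1.09%), 42 higher (0.620%) and 32 lower (0.473%). With TMM by itself 78 did (1.13%), 40 higher (0.578%) and 38 lower (0.549%). Of the 186 stress genes 2 met it, Sgk1 and Hspb8, both higher at P11, a share near that of all genes. The P8 library enters both steps, so a low P8 value raises the later ratio and lowers the earlier one.

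Sgk1 (ENSMUSG00000019970, chromosome 10 from 21882184 to 21999903 in mm10) encodes a kinase that regulates ion channels and transporters and answers to glucocorticoids, osmotic change and growth factors. At P6 it stood at 163 CPM (161 to 166), at P8 it stood at 118 CPM (115 to 121), and P11 reached 322 CPM (319 to 326), counted from 13442, 7386 and 33238 UMIs. P11 was thus the highest age, P8 the lowest, and the counting intervals did not touch. The ratio of P11 over P8 was 2.73 (2.66 to 2.80) with CPM and 2.58 with TMM, while P8 was 1.38-fold below P6 and P11 was 1.97 times P6.

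The difference in Sgk1 was seen across the cells and not in a few of them. The median cell held 97.8 CPM of Sgk1 at P8, with quartiles of 45.3 and 167, and 287 CPM at P11, with quartiles of 171 and 442. The lower quartile at P11 lay above the upper quartile at P8. When the cells of each library were divided into 5 equal groups by depth, the P11 over P8 ratio was between 2.57 and 2.94 in every group. In cells with Malat1 under 1%, at 1 to 2% and over 2% of UMIs it was 2.82, 2.69 and 2.51, and in the cells with 0 Xist UMIs it was 2.76. The other barcodes passing the limits held less Sgk1, 34.1 CPM at P8 and 78.4 at P11, from 16 and 65 UMIs. These droplets thus also had more at P11, and free RNA of the horizontal cells was not subtracted from them.

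Hspb8 (ENSMUSG00000041548, minus strand of chromosome 5 from 116408491 to 116422864) encodes a small heat shock protein that works with BAG3 in chaperone-assisted autophagy. Its levels were low. The P6 cells held 10.9 CPM (10.2 to 11.6), the P8 cells 9.68 CPM (8.92 to 10.5) and the P11 cells 20.7 CPM (19.8 to 21.6). P6 and P8 had overlapping intervals and P11 lay above both. The ratio of P11 over P8 was 2.14 (1.95 to 2.35) with CPM and 2.03 with TMM, so Hspb8 was just inside both the 20 CPM and the 2-fold limit. It ranged from 1.95 to 2.58 across the depth groups and from 2.11 to 2.43 across the Malat1 bands, and was 2.13 in cells with 0 Xist UMIs. Among those cells the ratio with TMM was 1.985, so Hspb8 did not meet the step rule there. It also missed the rule with median-of-ratios scaling (1.97), in cells of 10000 to 40000 UMIs (1.985 with TMM), as a mean over cells (19.8 CPM at P11) and at a minimum of 100 CPM. The other passing barcodes held 4.27 and 4.82 CPM of Hspb8, from 2 and 4 UMIs, too few to compare.

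**Figure D2:**
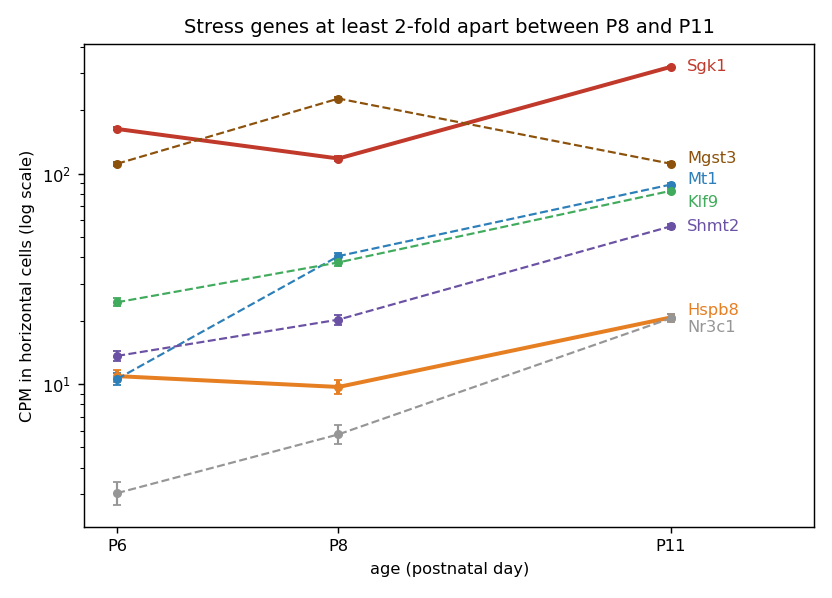
Level in horizontal cells (CPM, log scale, vertical axis) against postnatal age for the 7 stress genes at least 2-fold apart between P8 and P11; bars are Poisson 95% intervals, and solid thick lines mark Sgk1 and Hspb8, dashed lines the other genes. Sgk1 and Hspb8 are near level or lower from P6 to P8 and higher at P11, while Klf9, Mt1, Nr3c1 and Shmt2 are higher at each later age and Mgst3 peaks at P8.

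Other stress genes were at least 2-fold apart between P8 and P11 but failed the limit on the earlier step. Shmt2, a mitochondrial serine hydroxymethyltransferase gene and ATF4 target, came closest, with 13.6, 20.2 and 56.2 CPM at P6, P8 and P11. Its P11 over P8 ratio was 2.78 (2.61 to 2.95), and P8 was 1.49 times P6 with CPM but 1.80 times with TMM, so it met the rule with CPM alone. Shmt2 overlaps Ndufa4l2 on the opposite strand, and their reads could be shared if strand was not used. Klf9, a glucocorticoid- and thyroid hormone-induced transcription factor gene named here after its values were seen, held 24.5, 37.9 and 82.9 CPM, with P11 2.19-fold above P8 (2.09 to 2.29) after a 1.55-fold difference between P6 and P8. The other barcodes held more Klf9, 89.6 and 137 CPM. Shmt2 and Klf9 were the genes nearest to the 1.5-fold limit, on either side of it under CPM.

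Mt1, which encodes a metallothionein that buffers zinc and copper, stood at 10.6, 40.6 and 88.8 CPM. Its P11 over P8 ratio of 2.19 (2.09 to 2.29) came after a 3.84-fold difference between P6 and P8. Mgst3, a microsomal glutathione S-transferase gene, was the single stress gene at least 2-fold lower at P11, with 112, 228 and 112 CPM. It was 2.04-fold lower at P11 than at P8 (1.99 to 2.09), and P8 was the odd age, since P6 and P11 had the same level.

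The glucocorticoid list had the most higher members for its size. The receptor gene Nr3c1 held 3.03 CPM in P6 cells, 5.76 in P8 cells and 20.5 in P11 cells, a 3.56-fold ratio (3.19 to 3.996) that followed a 1.90-fold difference between P6 and P8. It too was higher in the other barcodes, at 38.4 and 54.3 CPM (18 and 45 UMIs). Of 12 genes of this list 5 were measured, and Nr3c1, Sgk1 and Klf9 were at least 2-fold higher, as were 2.04% of all measured genes. The other measured members, Tsc22d3, which encodes the glucocorticoid-induced leucine zipper GILZ, and its relative Tsc22d1, lay between the limits. Tsc22d3 stood at 91.5 CPM at P8 and 98.9 at P11, and Tsc22d1 at 115 and 130. Fkbp5, a co-chaperone gene that glucocorticoids induce in many tissues, was below the 20 CPM minimum, at 7.28 and 10.5 CPM, and Zbtb16 had 2 UMIs in each of the P8 and P11 libraries. The members therefore split, and the list median of 1.13 is the log2 ratio of Klf9, the middle of 5 genes. The list spans long genes (median 92.8 kb), a property that went with higher ratios over all genes, as given further on.

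Immediate early genes, the first to respond to activity and to dissociation, showed no measured member past 1.5-fold in either direction. Of 39 in the files 8 were measured, and the other 31 were under the minimum. Jund stood at 506 CPM at P8 and 457 at P11, and Dusp1, a phosphatase gene that glucocorticoids also induce, at 26.6 and 20.1. Fos stood at 0.688 and 0.543 CPM, Egr1 at 0.256 and 0.349, and Nr4a1 at 0.384 and 0.0679 (24 and 7 UMIs), all far under the minimum. Dusp5, another low member named after its values were seen, was 3.15-fold lower, at 2.38 and 0.756 CPM. The list median was -0.33.

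The measured heat shock genes other than Hspb8 stayed between the limits, 24 of 25 differing by less than 1.5-fold. The abundant chaperone gene Hsp90ab1 stood at 2405 and 2111 CPM, 1.14-fold lower, and Hspa8 at 1881 and 2052 CPM, 1.09-fold higher. The stress-inducible Hspa1a and Hspa1b were under 1 CPM at both ages. Bag3, whose product is the partner of HSPB8 and which is named after its values were seen, was under the minimum with 61 and 302 UMIs, at 0.976 and 2.93 CPM (a ratio between 2.27 and 4.02 by counting error). Dnaja1, a co-chaperone gene, was nearest to the lower limit, at 620 and 435 CPM, and passed it with TMM.

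Genes of the endoplasmic reticulum and of amino acid shortage were also mostly level. Xbp1, a transcription factor gene of the unfolded protein response, was the single member of 17 past 1.5-fold, at 24.7 CPM at P8 and 43.1 at P11 (1.75-fold, 1.65 to 1.85), and P8 was its lowest age (35.1 CPM at P6). Hspa5, the main chaperone gene of that compartment, stood at 144 and 191 CPM. In the integrated stress response list, Shmt2 was higher and Vldlr lower among 16 members. Vldlr, a reelin and lipoprotein receptor gene, stood at 173 and 105 CPM (1.64-fold lower). Atf4 itself (62.4 and 61.3 CPM) and the asparagine synthetase gene Asns (107 and 97.8 CPM) were nearly equal at the 2 ages.

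The measured antioxidant genes were between the limits or lower at P11. Besides Mgst3, the thioredoxin gene Txn1 was lower, with 489 CPM at P8 and 314 at P11 (1.56-fold lower, 1.53 to 1.58), and it too was higher at P8 than at P6 (263 CPM). The other 19 of 21 measured members, among them Gpx4, Sod1 and Prdx1, lay between the limits. Gsta4, a glutathione S-transferase gene under the minimum and named after its values were seen, was higher, at 4.19 and 11.8 CPM (2.82-fold, 2.46 to 3.23). Of the metal list, 2 members besides Mt1 were measured and both were level, the metal sensor gene Mtf1 standing at 21.1 and 20.2 CPM. Mt2, the neighbour of Mt1, was under the minimum at 10.6 and 15.8 CPM.

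The DNA damage list held members in both directions. Of 10 measured, 2 were at least 1.5-fold higher and 2 lower, beside 10.4% and 4.55% of all measured genes. Zmat3, an RNA-binding p53 target, stood at 61.5, 55.9 and 105 CPM at P6, P8 and P11 (1.88-fold higher than P8), and Sesn1, a sestrin gene, at 21.1, 12.7 and 22.9 CPM (1.80-fold). Phlda3, another p53 target, stood at 24.4, 24.3 and 12.9 CPM (1.89-fold lower), and Bax, whose product opens the mitochondrial membrane in apoptosis, at 192, 205 and 125 CPM (1.63-fold lower). P6 and P8 were near each other for Zmat3, Phlda3 and Bax. With 1.5-fold in place of 2-fold between P8 and P11, 7 stress genes met the step rule, namely Sgk1, Hspb8, Zmat3, Xbp1, Phlda3, Bax and Psma7.

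The remaining lists held few members past the limits. Among 15 hypoxia genes Ndrg1 (1604 and 2436 CPM, 1.52-fold) and the glycolysis regulator Pfkfb3 (105 and 158 CPM, 1.502-fold) were just past 1.5-fold and neither was with TMM. Of 22 autophagy and lysosome genes, Wipi1 (1.64-fold) and the cathepsin gene Ctsb (1.53-fold) were higher, and with TMM Wipi1 was the single one. Nfkb1 was higher (14.8 and 25.6 CPM) and Nfkbia level among the 2 measured of 25 inflammation genes. None of 11 apoptosis genes was past 1.5-fold with CPM, and with TMM Mcl1, a BCL2 family survival gene, was (57.8 and 39.98 CPM). All 31 proteasome genes were measured, and 30 lay between the limits around a median log2 ratio of -0.36, with Psma7 lower (682 and 437 CPM, 1.56-fold).

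Over all 6770 measured genes, 138 were at least 2-fold higher at P11 (2.04%) and 66 at least 2-fold lower (0.975%). Higher genes made up 67.6% of these with CPM, but 52.7% with TMM, which called 98 higher (1.42% of 6924) and 88 lower (1.27%). Of the 138 higher genes, 67 were also at least 1.5-fold above P6, another 67 were within 1.5-fold of P6, and 4 were below it. Of the 66 lower genes, 53 were also below P6.

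Ratios went with the genomic span of the gene. The 138 higher genes had a median span of 175 kb and the 66 lower genes 7.24 kb, against 28.3 kb for all measured genes. In 5 groups of equal size by span, the median log2 ratio was -0.26, -0.08, 0.06, 0.19 and 0.43 from shortest to longest, and 87 of the 138 higher genes were in the longest group. Malat1, which stays in the nucleus, stood at 20337, 15319 and 21409 CPM in P6, P8 and P11 cells. Unspliced nuclear RNA comes largely from long genes, and its part in these ratios was not tested; whether intron reads were counted is not given in the sources used here. When log2 ratios were centred within each span group, 76 genes were higher and 64 lower, and Sgk1 (2.02-fold) and Hspb8 (2.26-fold) both met the step rule, as did Shmt2. Lrfn5, Galnt18, Wipf1 and Lrrc4, which met the rule without centring and are described further on, were then below 2-fold, with log2 ratios of 0.83, 0.81, 0.78 and 0.69, and Rerg, Tmem176b, Tubb2b and Fabp5 no longer met the limit on the earlier step.

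**Figure D3:**
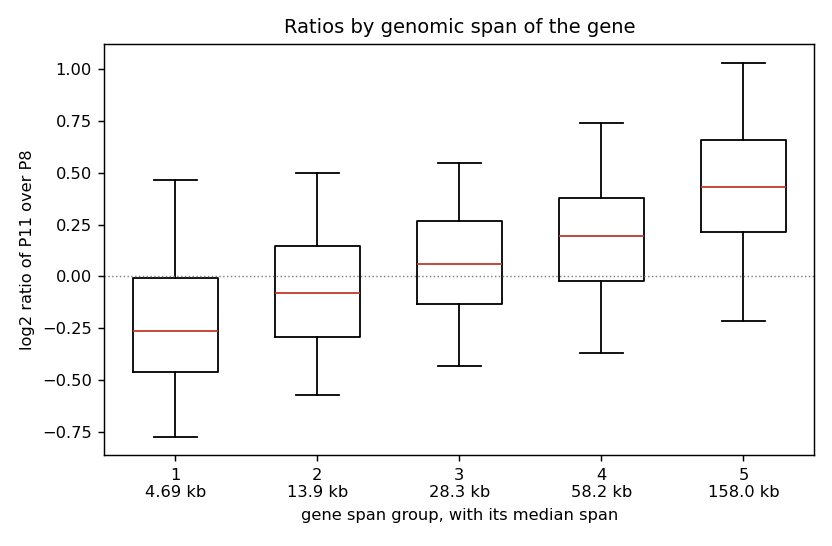
Log2 ratio of P11 over P8 (vertical axis) in 5 equal groups of measured genes by genomic span, with the median span in kb under each; boxes show the quartiles, red lines the medians and whiskers the 5th and 95th percentiles. The median goes from -0.26 in the shortest group to 0.43 in the longest.

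The genes with the highest ratios were of several kinds. Rskr, a gene related to ribosomal S6 kinases, stood at 0.778, 6.30 and 63.3 CPM in P6, P8 and P11 cells, which put P11 10.0-fold above P8 (9.06 to 11.14). Dlc1, a GTPase-activating protein gene, stood at 12.6, 11.8 and 53.9 CPM (4.55-fold). Frmpd4, which encodes a scaffold that binds PSD-95, stood at 52.5, 36.1 and 136 CPM (3.77-fold), and Nrg1, the neuregulin 1 gene, at 692, 261 and 958 CPM (3.67-fold). Each of these genes was highest at P11. With CPM, P8 was the lowest age for Dlc1, Frmpd4 and Nrg1, whose P11 levels were 4.29, 2.59 and 1.38 times those at P6. With TMM, P6 was the lowest age for Dlc1. Tkt, the transketolase gene, was 3.05-fold higher at 1333 CPM, and Thrsp, a regulator of lipid synthesis, 3.45-fold at 364 CPM. Ly6e and Lynx1, of the Ly6 protein family, were 3.12-fold and 3.03-fold higher. Rgs9bp, an anchor protein gene of the RGS9 complex, was 3.08-fold higher. Arhgap15 (3.19-fold), P2ry14, a receptor gene for UDP-glucose (3.14-fold), and the protease gene Tll1 (3.02-fold) completed the 12 highest. P2ry14 was higher in the other barcodes of both libraries (130 and 147 CPM) than in horizontal cells (24.3 and 76.3 CPM), and it overlaps Med12l on the opposite strand. Dlc1 was likewise higher in the other barcodes, at 51.2 and 108.5 CPM (24 and 90 UMIs).

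Under the same limits, the 12 genes with the lowest ratios were also of several kinds, and Nnat, Tubb2b, Tmsb10 and Gap43 are members of the neurite growth list. Rerg, a RAS-like GTPase gene, stood at 70.3, 85.0 and 10.4 CPM in P6, P8 and P11 cells, 8.13-fold below P8 (7.62 to 8.69). Filip1l was 7.30-fold lower at 28.6 CPM, Nnat, an imprinted gene of developing neurons, 7.26-fold at 44.05 CPM, and Nt5dc2 6.52-fold at 9.15 CPM. Tubb2b, a tubulin gene of young neurons, stood at 1265, 967 and 224 CPM (4.31-fold lower). Tmsb10, which encodes an actin-sequestering thymosin, stood at 1592, 1343 and 413 CPM (3.25-fold), and Gap43, the growth cone protein gene, at 255, 155 and 46.5 CPM (3.33-fold). Tmem176b (4.71-fold) and Tmem176a (3.94-fold) overlap each other on opposite strands, as do Filip1l and Cmss1, and the strand setting of the counting is not given in the sources used here. Cmss1 (3.32-fold) and AY036118 (3.46-fold), of which AY036118 overlaps Gm42418, were highest at P8, the age at which Gm42418 was highest. Pafah1b3, a subunit gene of platelet-activating factor acetylhydrolase, was 2.80-fold lower.

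**Figure D4:**
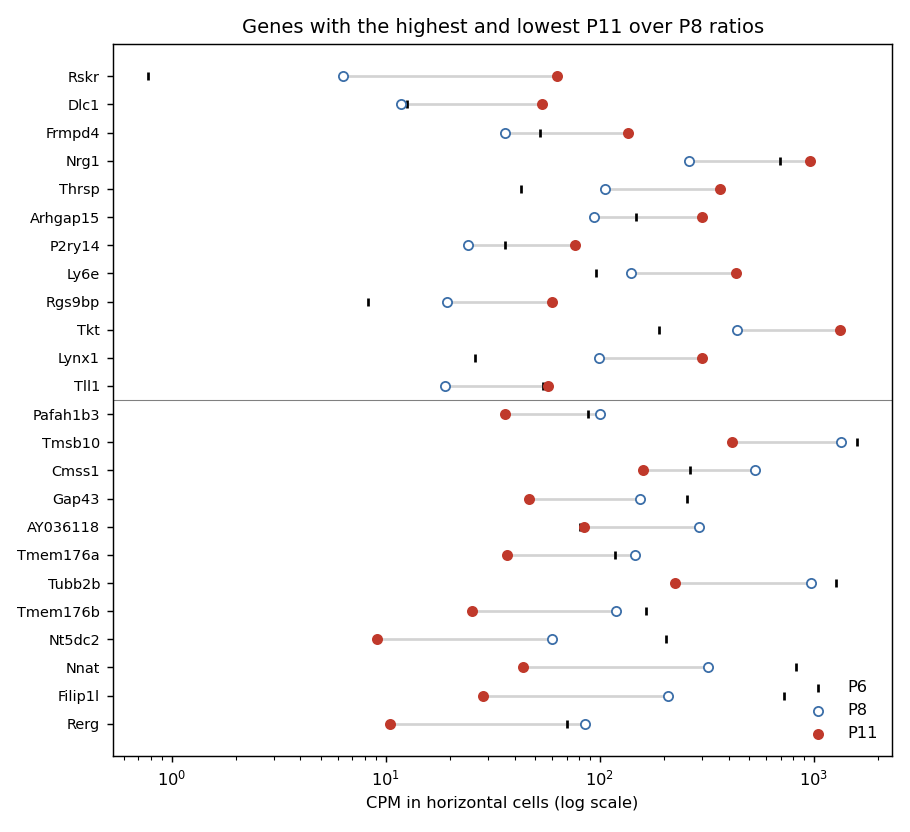
Level in horizontal cells (CPM, log scale, horizontal axis) at P6 (black ticks), P8 (open circles) and P11 (filled circles) for the 12 genes with the highest and the 12 with the lowest P11 over P8 ratio. Genes had at least 50 CPM at the higher age and met the naming limits. Rerg, Tubb2b and Tmsb10 have P6 and P8 marks close together and a separate P11 mark, while for Nnat and Filip1l each later age is lower.

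Among the genes that met the step rule and the same naming limits, the 8 highest were Dlc1, Frmpd4, P2ry14, Thrb, Sgk1, Lrfn5, Galnt18 and Wipf1. Thrb, a thyroid hormone receptor gene, stood at 46.7, 32.7 and 90.1 CPM (2.76-fold, 2.63 to 2.89), and at 147 and 194 CPM in the other barcodes of the P8 and P11 libraries. Lrfn5, a synaptic adhesion gene, stood at 32.4, 37.4 and 89.9 CPM (2.40-fold), Galnt18, a glycosyltransferase gene, at 431, 305 and 720.4 CPM (2.36-fold), and Wipf1, an actin regulator gene, at 67.6, 50.3 and 117 CPM (2.32-fold). Lrfn5 too was higher in the other barcodes, at 89.6 and 183 CPM. Sgk1 was thus among the stronger members of this set. With CPM, P8 was the lowest age for 7 of these 8 genes, Lrfn5 being the exception. For Dlc1 the P6 and P8 counting intervals overlapped, and with TMM its P6 level (11.2) was below its P8 level (12.9). The 8 lowest were Rerg, Tmem176b, Tubb2b, Tmem176a, Tmsb10, Fabp5, Pafah1b3 and Cnih2. Fabp5, a fatty acid-binding protein gene, stood at 480, 362 and 130 CPM (2.78-fold lower), and Cnih2, an AMPA receptor auxiliary subunit gene, at 83.3, 74.6 and 29.4 CPM (2.54-fold lower). Several of these genes missed the rule in other settings. In cells with 0 Xist UMIs Rerg and Frmpd4 missed it, though both stayed past 2-fold between P8 and P11. Rerg also missed it with median-of-ratios scaling and in cells with Malat1 at 1 to 2% of UMIs. Frmpd4 and Thrb missed it in cells of 10000 to 40000 UMIs. Among other settings, P2ry14 missed it as a mean over cells, Tmem176a with median-of-ratios scaling and Lrfn5 in the Malat1 band.

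**Figure D5:**
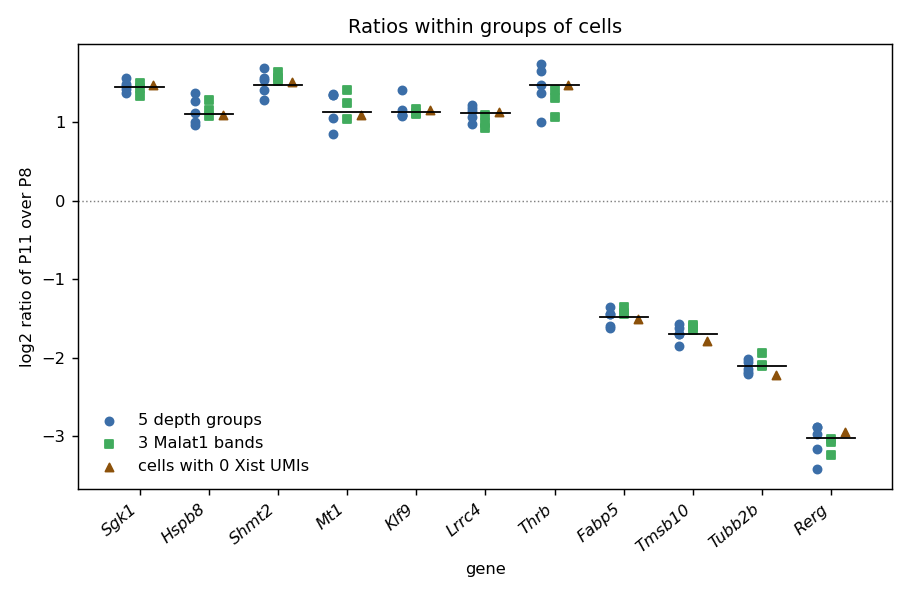
Log2 ratio of P11 over P8 (vertical axis) for 11 genes in 5 depth groups (circles), 3 Malat1 bands (squares) and the cells with 0 Xist UMIs (triangles); black bars are the values over all cells. Every mark of a gene lies on the same side of 0 as its bar, and those of Sgk1 lie close together.

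Among the gene groups of neuronal maturation, neurite growth genes were lower in the P11 cells. The list had 21 measured genes, 12 lower by at least 1.5-fold and 0 higher, with a median log2 ratio of -0.86, and 14 were lower with TMM. Over all genes 4.55% were lower by that much with CPM and 7.18% with TMM, and 10.4% and 7.60% were higher. Marcksl1, a regulator of actin in growing processes, stood at 25.5 CPM at P8 and 1.79 at P11 (14.2-fold lower, 12.21 to 16.7). Its log2 ratio was -4.16 with a UMI of all 3 marker genes and -3.51 with at least 1. The other barcodes held more Marcksl1, 152 and 142 CPM, and more Nnat, 1204 and 504 CPM. They held less Tubb2b, 401 and 195 CPM. Tmsb10 and Gap43 were lower there at P8 and higher at P11 than in horizontal cells. Some members of the list were level, such as Tubb2a (2672 and 2334 CPM), and the list is made of short genes (median span 8.04 kb), whose ratios were lower over all genes. Cytosolic ribosomal protein genes, a list added after values were seen and made of still shorter genes (3.27 kb), had 24 of 76 members lower with CPM, 37 with TMM and 0 higher with either (median -0.50), Rps29 being 2.07-fold lower.

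The synaptic lists had more higher than lower members. So did all measured genes, with 10.4% at least 1.5-fold higher and 4.55% lower with CPM, and 7.60% and 7.18% with TMM. The glutamate receptor and postsynapse list had 7 of 17 members at least 1.5-fold higher and 1 lower (median 0.43), and 4 higher and 1 lower with TMM. The AMPA receptor subunit gene Gria3 stood at 153 CPM at P8 and 299.9 at P11 (1.96-fold) and the NMDA receptor subunit gene Grin1 at 95.5 and 174 CPM (1.83-fold), while Cnih2 was the lower member. Of 19 synaptic adhesion genes 6 were higher and 1 lower (median 0.31), and 4 and 1 with TMM. Lrrc4, a netrin-G ligand gene that lies within Snd1 on the opposite strand and met the step rule, stood at 396, 376 and 816 CPM at P6, P8 and P11 (2.17-fold), and its relative Lrrc4b was 2.07-fold lower at 11.08 CPM. In cells with Malat1 at 1 to 2% of UMIs Lrrc4 missed the rule (1.98-fold). Both the glutamate receptor and the adhesion list hold long genes, with median spans of 121 kb and 327 kb. Of 27 vesicle release genes 4 were higher and 1 lower with CPM, and 2 and 1 with TMM, shares near those of all genes, with Syn3 2.72-fold higher and Rab3b 2.18-fold lower. None of 7 GABA genes was past 1.5-fold, and the vesicular GABA transporter gene Slc32a1 stood at 259 and 238 CPM. Of 12 ion channel genes 3 were higher with either scaling, led by the calcium channel gene Cacna1d (2.33-fold), which also stood at 130 and 168 CPM in the other barcodes against 17.0 and 39.5 CPM in horizontal cells. The ankyrin gene Ank2, named in the title of the series through its family, stood at 1964, 1442 and 2124 CPM in P6, P8 and P11 cells (1.47-fold above P8), and Ank3 at 551, 201 and 279 CPM (1.39-fold). P8 was the lowest age for both, and centred by span their log2 ratios were 0.13 and 0.04.

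Metabolic lists showed isolated members. Over all measured genes, 10.4% were at least 1.5-fold higher with CPM and 7.60% with TMM, and 4.55% and 7.18% were lower. Of 15 glycolysis genes Ldha, the lactate dehydrogenase A gene, was past 1.5-fold, at 407 CPM at P8 and 198 at P11 (2.06-fold lower), while Ldhb was level at 445 and 435 CPM. In the pentose phosphate list Tkt was higher and Pgls lower (1.74-fold) among 6. Of 12 mitochondrially encoded genes 5 were higher with CPM and 4 with TMM, with mt-Nd3 at 232 and 426 CPM (1.84-fold). The mitochondrial share of the libraries is made of these same counts and is not a separate observation. Cells were also limited to 10% of it. Of 13 circadian clock genes 6 were higher with CPM and 3 with TMM, and none was lower. Hlf (1.78-fold) and Rora (1.76-fold) led them, and the hour of tissue collection is not given in the sources used here. Of 14 cholesterol synthesis genes Msmo1 (1.58-fold) and Insig1 (1.52-fold) were higher with CPM, a share near that of all genes, whereas with TMM neither was past 1.5-fold and Pmvk was lower.

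None of 8 measured transcription factor genes that define horizontal cells was past 1.5-fold. Lhx1, Onecut1 and Onecut2 were used to select the cells, so their levels at both ages were partly set by the rule. Lhx1, used to select the cells, stood at 825 and 791 CPM, and Prox1, not used to select them, at 973 and 1336 CPM. Among calcium-binding protein genes Calb1 was 1.72-fold higher, and Vsnl1 (1.62-fold) and Calm2 (1.54-fold) were lower.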

How the data were processed

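Raw UMI counts per gene and barcode were deposited by the authors for 3 libraries, made with Cell Ranger 7.1.0 on build mm10, per the submitters' processing notes (annotation, intron and strand settings: not given in the sources used here). Each deposited count table held 32285 features. Horizontal cells were selected as the report states, their counts were summed per library, and sums were divided by total UMIs to give CPM. TMM factors over the 3 libraries came from edgeR 4.0.16 (R 4.3.3), used for scaling only, and other steps from scanpy 1.11.5, numpy 2.4.6, scipy 1.17.1 and pandas 2.3.3. The comparison was tested on simulated data with CPM scaling and counting error only. TMM scaling, other variation between libraries and genes at the 2-fold limit were not simulated. Sums carry exact Poisson intervals and ratios exact conditional binomial intervals.

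Scrublet's own threshold called 0.244% of P8 cells and 0 at P6 and P11, under a working minimum of 0.5%, so no doublets were removed, and removal by score was an alternative. Features sharing a symbol (78) were left out of lists. Spans came from GENCODE vM21, which placed 32158 features.

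Genes were named as the 12 highest and 12 lowest ratios that had a minimum of 50 CPM at the higher age and at least 25% of the level in the other passing barcodes, without mitochondrial, ribosomal, hemoglobin, Xist, Tsix, Y-linked or provisional genes. Added were the stress genes of the step rule, the 8 highest and 8 lowest genes of that rule, at most 2 list members each way past 1.5-fold, Ank2 and Ank3. Level list members and low genes are given as examples. The members and lists were chosen with earlier results of these data known. The level of a single marker gene is not reported here.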

Additional observations from a re-analysis of the deposited data

How the results depend on the processing

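No paired analysis was possible because each age had 1 library, and for the same reason no replicate could be left out. The median log2 ratio of all measured genes (0.07) was -0.01 with TMM, -0.05 with median-of-ratios scaling and -0.10 at a minimum of 100 CPM, 0.11 at a minimum of 5 CPM, 0.05 in cells with Malat1 at 1 to 2% of UMIs and 0.00 centred by span. Those cells, the cells with 0 Xist UMIs and the centring were chosen after seeing the data. The 138 higher genes became 86 with median-of-ratios scaling, 59 at 100 CPM, 247 at 5 CPM, 84 in the Malat1 band, 76 centred by span and 24 at 3-fold. The 66 lower genes became 32 at 100 CPM, 140 at 5 CPM and 19 at 3-fold. The 14 higher stress genes became 5 at 100 CPM, and the 6 lower ones 10 with TMM and 16 with median-of-ratios scaling. The cause of these differences was not tested beyond the number of genes each minimum admits.

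Of the 2 stress genes that met the step rule, 1 remained at 100 CPM, 1 as a mean over cells, 1 in cells of 10000 to 40000 UMIs and 1 in cells with 0 Xist UMIs, each time Sgk1. Under a stricter limit between P6 and P8, 1 remained, Hspb8, and 7 met the rule at 1.5-fold. Median-of-ratios scaling gave Sgk1 and Phlda3. All 1170 log2 ratios of the 78 named genes over 15 settings kept their sign. Most of these genes were named for ratios past 1.5-fold in the same libraries. A change of sign was therefore unlikely from the start, and the count is not support for the ratios. The 20 CPM minimum set aside 150 stress genes, and at 5 CPM 1 of them, Trp53inp1, also met the step rule.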
